A study of Mus musculus with 4 samples.

Results

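Glycolysis, the pentose phosphate pathway and the hypoxia-inducible factors that govern them were described here through 38 listed genes, measured in sorted mouse bone marrow cells. The list was fixed by gene symbol: glucose and lactate carriers, every enzyme from hexokinase to lactate dehydrogenase with its main isoforms, pyruvate dehydrogenase and its kinases, the fructose 2,6-bisphosphate enzymes, 2 oxidative pentose phosphate enzymes, Hif1a and Epas1. Of the 38 genes, 34 had a probe set for which they were the only symbol in the platform annotation, and for each gene the probe set with the highest mean over the 4 arrays was taken. Gapdh was represented by Affymetrix control probe sets alone, which were kept out of the test, so 33 genes were tested among 18193 genes in all. The expression of Gpi1, Eno1, Pfkfb1 and G6pdx was not analysed here, while their promoter windows are counted below.

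The 4 arrays held RNA of Lin- c-Kit+ Sca-1+ cells, a sorting gate that takes in stem cells and multipotent progenitors and that the labels call HSCs. There were 2 arrays labelled Alox15-/-, named for a deletion of the arachidonate 15-lipoxygenase gene with no further allele given, and 2 labelled WT, all from C57BL/6 (B6) mice aged 8 weeks and with no treatment named. The labels call the replicates biological but give neither animals nor pools, so p-values measure the spread between these arrays, which may be partly technical. Values are log2 readings per probe set after RMA, as deposited, and a difference is the mean of the arrays labelled Alox15-/- minus the mean of WT, with the standard error of the limma fit over all genes (n = 2 each). Bulk RNA of this kind cannot tell fewer cells of a type from less RNA per cell.

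Some facts of the arrays bear on every direction given. Alox15 itself read 10.68 and 10.75 in the arrays labelled Alox15-/-, against 4.63 and 4.35 in WT, which goes against the labels. Whether its probe set lies in the deleted stretch is not given. Groups are named as labelled, and each direction is that of the labels. If the labels were exchanged, every direction given here would be reversed, and this was not tested. Alox15 was the single gene of 18193 past a limma adjusted p of 0.05. The highest of 27 bacterial control probe sets read 4.95 to 5.17 over the 4 arrays and serves below as the mark of background. This mark is lenient, as 13008 of 18193 genes tested exceeded it on all 4 arrays. A reading somewhat above it does not by itself show that a gene was expressed. Kit, which the gate selects for, and the stem and progenitor markers Cd34 and Flt3 read 10.23 to 11.62 on the 4 arrays, and Slamf1 read 7.10 to 7.53. Kit differed by -0.27 and Slamf1 by 0.32, both without overlap, while Cd34 and Flt3 overlapped. Other probe sets differed by -0.20 for Kit and by -0.25 to 0.73 for Slamf1. Neither gene passed a limma adjusted p of 0.05. Ly6a, the gene of Sca-1, was not among the genes tested. Above background on all arrays were also 2 of 4 T cell markers (Cd4 and Cd8a) and 3 of 4 B cell markers (Cd79a, Ebf1 and Igll1), between 5.12 and 6.79, while Cd3e, Cd3g and Ms4a1 lay below it on every array. Neutrophil markers ran higher in the arrays labelled Alox15-/-, 8 of 8 tested, with a mean reading of 7.42 and 7.04 there, against 5.89 and 6.68 in WT. Mmp8 among them was below background on all 4 arrays.

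As background, glycolysis splits glucose into pyruvate, which lactate dehydrogenase turns into lactate or pyruvate dehydrogenase passes to mitochondria. The pyruvate dehydrogenase kinases close that second route by phosphorylating the E1 subunit, and the oxidative pentose phosphate branch draws off glucose 6-phosphate to make NADPH and ribose. Hypoxia-inducible factor 1 alpha, stabilised when oxygen is low, activates many of these genes, and long-term blood stem cells are known for glycolytic metabolism with pyruvate dehydrogenase kinase activity and stabilised Hif1a protein.

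The upstream sequence of 5 genes is given because 4 of them, Ldhd, Eno2, Eno3 and Hif1a, carried the lowest unadjusted p-values of the list and were picked for that, and Ldha is a long-known target of hypoxia-inducible factor. Each sequence is the 250 bases before the start of the first RefSeq promoter window of the gene (build GRCm38.p6, 5′ to 3′ on the gene's strand), and capitals mark ACGTG and GCGTG, the core letters of the hypoxia response element, on either strand. The windows lie at chr8:111630337-111630586 on the minus strand for Ldhd, chr6:124769674-124769923 on the minus strand for Eno2, chr11:70656926-70657175 on the plus strand for Eno3, chr12:73907617-73907866 on the plus strand for Hif1a and chr7:46845554-46845803 on the plus strand for Ldha.
Ldhd: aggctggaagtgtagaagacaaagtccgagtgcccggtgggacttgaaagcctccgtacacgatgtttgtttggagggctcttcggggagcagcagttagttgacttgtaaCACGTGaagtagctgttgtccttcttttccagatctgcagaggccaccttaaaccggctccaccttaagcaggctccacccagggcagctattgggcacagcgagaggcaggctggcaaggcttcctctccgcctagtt
Eno2: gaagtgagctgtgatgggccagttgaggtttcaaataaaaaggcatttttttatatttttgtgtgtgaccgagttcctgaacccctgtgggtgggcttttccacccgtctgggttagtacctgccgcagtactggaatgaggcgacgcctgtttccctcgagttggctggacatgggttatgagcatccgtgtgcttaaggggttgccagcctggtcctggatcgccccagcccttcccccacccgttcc
Eno3: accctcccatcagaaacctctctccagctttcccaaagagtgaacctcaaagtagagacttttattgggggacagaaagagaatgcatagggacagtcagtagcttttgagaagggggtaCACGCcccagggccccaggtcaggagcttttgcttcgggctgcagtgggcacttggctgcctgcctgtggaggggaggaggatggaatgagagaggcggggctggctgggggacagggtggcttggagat
Hif1a: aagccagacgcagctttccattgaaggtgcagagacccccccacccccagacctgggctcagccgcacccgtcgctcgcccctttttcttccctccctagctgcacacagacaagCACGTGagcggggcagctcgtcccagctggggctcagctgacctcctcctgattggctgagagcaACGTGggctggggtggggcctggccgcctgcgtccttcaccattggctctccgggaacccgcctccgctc
Ldha: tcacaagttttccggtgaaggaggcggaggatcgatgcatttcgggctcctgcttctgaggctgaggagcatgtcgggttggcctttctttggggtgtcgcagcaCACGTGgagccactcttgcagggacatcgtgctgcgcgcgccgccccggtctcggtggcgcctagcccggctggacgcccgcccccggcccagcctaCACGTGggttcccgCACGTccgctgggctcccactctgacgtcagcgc
Ldhd, Hif1a and Ldha carry CACGTG, a palindrome also known as an E-box, in which ACGTG is read on both strands, and Ldha carries it in 2 places. The Eno3 window holds 1 match to GCGTG on its minus strand, and these letters are absent from the Eno2 window. Over whole windows, 250 bases before to 50 after the start, one or the other motif stood in 43 of 56 windows of the 36 listed genes found in the RefSeq table (76.8%). For the 31 of these genes that were tested on the arrays it was 37 of 46 windows (80.4%). The same held for 9892 of 18109 windows of all genes tested on the arrays (54.6%) and for 43.8% of all 32851 windows. Some genes have several windows, each counted, and the base content of the windows was not compared between these sets. A match of 5 letters is a description of the sequence and does not show binding.

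None of the 33 genes passed a limma adjusted p of 0.05, against 0.0055% of all genes tested, and the lowest adjusted p was 0.298, for Ldhd. At an unadjusted p under 0.05, 4 genes were lower and 0 higher: Ldhd, Eno2, Eno3 and Hif1a, 12.1% of the list, beside 3.57% of all genes lower and 4.2% higher. With a mean-dependent prior variance 7 genes were lower, beside 4.38% of all genes in that setting. There 2 genes, Ldha and Pdk1, were higher, and the share of all genes higher is not given. With no variance moderation 3 were lower, Ldhd, Eno2 and Slc2a1, beside 2.91% of all genes. Readings of the groups did not overlap for 9 genes that were higher (27.3%, beside 21.4% of all genes) and 8 that were lower (24.2%, beside 17.1%). Differences were above 0 for 18 of the 33 genes (54.5%, beside 53.7% of all genes) and below 0 for 15 (45.5%, beside 46.1%). The median difference was 0.01 over the 33 genes and 0.02 over all genes. Of the 33 differences, 31 were at most 0.5 in size, and the 2 larger ones, of Ldhd and Eno2, were both below -1, as were 0.412% of all genes. An exact permutation test over 2 arrays against 2 cannot give a two-sided p under 0.333, so for single genes the limma fit was the only test.

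**Figure D1:**
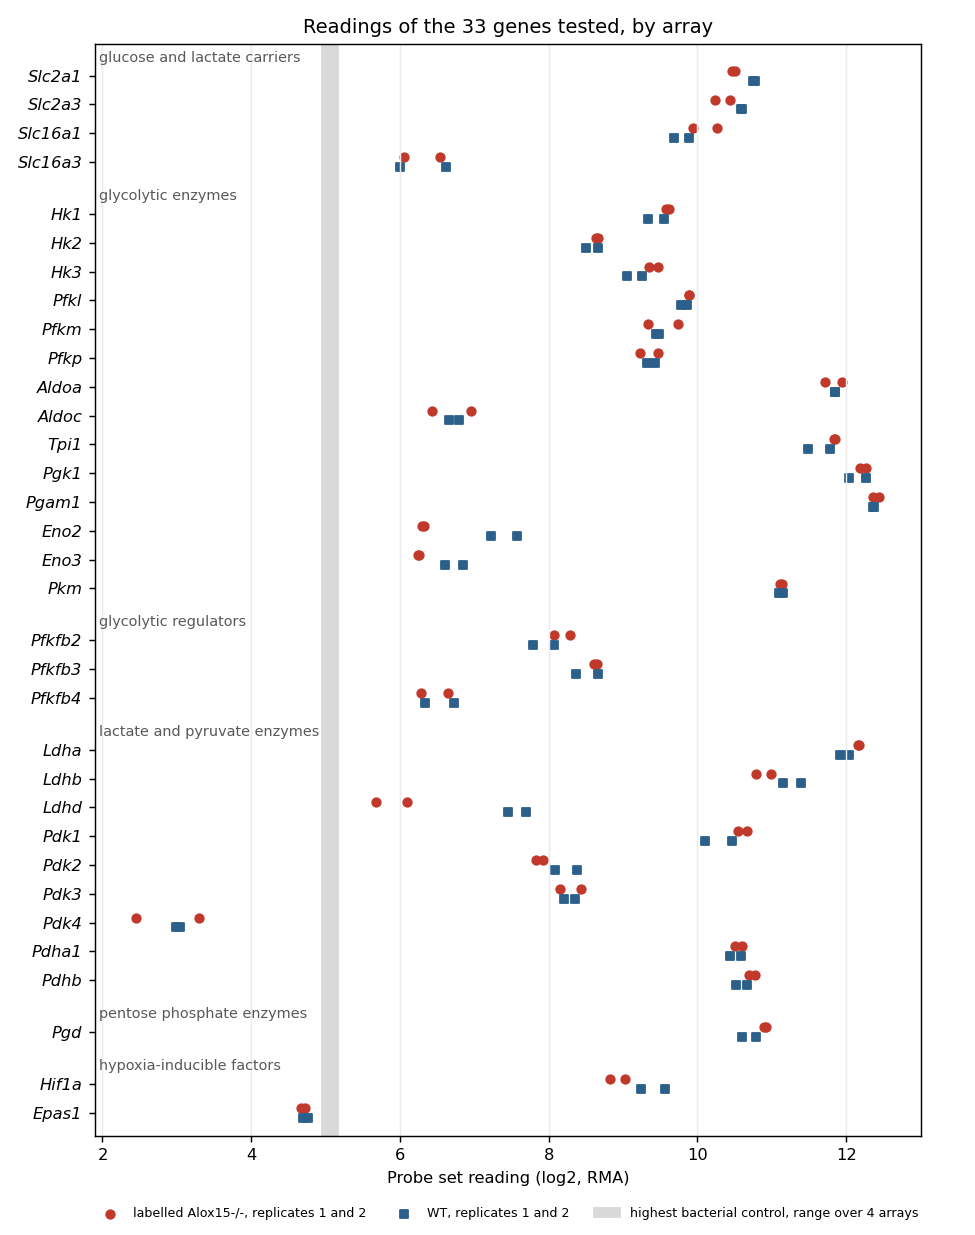
Log2 probe set reading (horizontal axis) of each of the 33 genes tested, ordered by role from top to bottom; red circles are the 2 arrays labelled Alox15-/-, blue squares the 2 WT arrays, and the grey band is the range of the highest bacterial control over the 4 arrays. Pdk4 and Epas1 lie below the band on all arrays, and Ldhd and Eno2 show the widest gaps between groups.

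Enzymes of the common trunk of glycolysis were read near the top of the array, with small differences between groups at the probe sets tested. Pgam1, the phosphoglycerate mutase, read 12.36 and 12.44 in the arrays labelled Alox15-/-, against 12.38 and 12.36 in WT, a difference of 0.03 ± 0.13. Pgk1, which makes the first ATP of the payoff phase, read 12.18 and 12.27 in the arrays labelled Alox15-/-, against 12.04 and 12.27 in WT. Pkm, the pyruvate kinase gene whose splice forms this probe set was not assigned to, read 11.13 and 11.11 in the arrays labelled Alox15-/-, against 11.10 and 11.15 in WT, and its groups overlapped with a 95% interval of -0.32 to 0.32 for the difference. Aldoa, the aldolase of most tissues, read 11.94 and 11.71 in the arrays labelled Alox15-/-, against 11.85 and 11.85 in WT. Aldoa is read at a probe set whose suffix marks possible cross-hybridisation. At these probe sets the readings of the groups overlapped for all 4 genes. The other probe sets of Pgk1 were higher by 0.38 without overlap and by 0.21 with overlap, so that the mean of its probe sets gave 0.22, while the other Aldoa probe sets ran from -0.06 to 0.18 with overlap at each. The 95% intervals at the tested probe sets of Pgam1, Pgk1, Pkm and Aldoa each lay between -0.38 and 0.44, which does not show that the levels were equal.

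Tpi1, the triosephosphate isomerase, was another bright gene of the trunk and did not overlap between groups. It read 11.86 and 11.83 in the arrays labelled Alox15-/-, against 11.48 and 11.78 in WT, a difference of 0.21 ± 0.16 (limma adjusted p = 0.778), and leaving out 1 array gave 0.06 without WT replicate 1 and up to 0.36 without WT replicate 2. Its other probe sets differed by 0.08 with overlap and by 0.22 without. Gapdh, glyceraldehyde-3-phosphate dehydrogenase, could be read only at its 3 control probe sets. At the 3′ end it read 12.91 on both arrays labelled Alox15-/-, against 12.83 and 12.82 in WT, in the middle 11.71 and 11.63 in the arrays labelled Alox15-/-, against 11.43 and 11.50 in WT, and at the 5′ end 10.77 and 10.74 in the arrays labelled Alox15-/-, against 10.46 and 10.43 in WT. The groups did not overlap at any of the 3, and the difference was 0.08, 0.21 and 0.31 at the 3′ end, the middle and the 5′ end. The 3′ reading thus exceeded the 5′ reading by 2.14 and 2.17 in the arrays labelled Alox15-/- and by 2.37 and 2.39 in WT, a measure of RNA integrity and labelling that moved with the groups and whose part in the other differences was not tested. With the control probe sets admitted to the fit, the 3′ difference of 0.08 had a limma adjusted p of 0.904.

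Glucose enters through Slc2a1 (GLUT1) and Slc2a3 (GLUT3), and both carriers were lower in the arrays labelled Alox15-/- with no overlap. Slc2a1 read 10.50 and 10.46 in the arrays labelled Alox15-/-, against 10.75 and 10.78 in WT, a difference of -0.28 ± 0.13 (limma unadjusted p = 0.0732, adjusted p = 0.677). Slc2a3 read 10.23 and 10.43 in the arrays labelled Alox15-/-, against 10.58 and 10.60 in WT, a difference of -0.26 ± 0.14 (limma adjusted p = 0.712). The other probe sets of Slc2a1 differed by -0.29 without overlap and by -0.07 with overlap. Those of Slc2a3 differed by -0.34, -0.28 and, at the dimmest, -0.0025 with overlap. Without Alox15-/- replicate 1 the Slc2a3 difference was -0.155. Neither passed the test. The lactate and pyruvate carrier Slc16a1 (MCT1) read higher and did not pass either, with 9.94 and 10.26 in the arrays labelled Alox15-/-, against 9.88 and 9.69 in WT, a difference of 0.32 ± 0.17 that was 0.16 without Alox15-/- replicate 2 and 0.20 as the mean of its probe sets. Slc16a3 (MCT4), the export carrier of strongly glycolytic cells, read 6.05 and 6.54 in the arrays labelled Alox15-/-, against 6.01 and 6.62 in WT, with spread within each group and no separation between them.

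Hexokinase was read from 3 genes, all well above background on every array. Hk1, the widely expressed form, read 9.61 and 9.58 in the arrays labelled Alox15-/-, against 9.33 and 9.55 in WT. Hk3, a form found mainly in myeloid blood cells, read 9.35 and 9.47 in the arrays labelled Alox15-/-, against 9.26 and 9.06 in WT. Hk2, the insulin- and hypoxia-responsive form, read 8.64 and 8.66 in the arrays labelled Alox15-/-, against 8.50 and 8.66 in WT. Hk1 had the highest readings, Hk3 the next and Hk2 the lowest, but probe sets differ in affinity, so this order is one of readings and gives no ratio of transcripts. Hk3 differed by 0.25 ± 0.14 and by 0.39 at its other probe set, with no overlap at either, and did not pass the test (limma adjusted p = 0.726). Without WT replicate 2 the Hk3 difference was 0.15. Hk1 differed by 0.16 ± 0.14, which was 0.0512 without WT replicate 1 and 0.26 without WT replicate 2. The myeloid progenitor genes Mpo, Elane, Prtn3, Ctsg, Ms4a3 and F13a1 were higher in 6 of 6 cases, with a mean reading of 9.10 and 9.23 in the arrays labelled Alox15-/-, against 8.02 and 8.35 in WT. Together with the neutrophil markers above these moved in the direction of Hk3. So did 4 of 4 mast cell and basophil markers (median 0.75), of which Fcer1a lay below background on every array. Of the monocyte and macrophage markers 4 of 6 were higher, with Itgam lower by -0.51 without overlap, and of the erythroid markers 2 of 4. Also higher were 3 of 4 B cell, 3 of 4 T cell and 4 of 5 endothelial and stromal markers. Of all genes tested 53.7% had a difference above 0. Groups overlapped for Elane, Mmp9, Cxcr2 and Mcpt8. The part of these markers in the Hk3 difference was not tested.

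Phosphofructokinase, the committed step, was read from all 3 of its subunit genes at like readings, 9.23 to 9.89 over all arrays. Pfkl, the liver-type subunit, read 9.88 and 9.89 in the arrays labelled Alox15-/-, against 9.78 and 9.86 in WT. Pfkm, the muscle-type subunit, read 9.74 and 9.34 in the arrays labelled Alox15-/-, against 9.44 and 9.48 in WT, and Pfkp, the platelet-type subunit, 9.47 and 9.23 in the arrays labelled Alox15-/-, against 9.33 and 9.43 in WT. At these probe sets none of the 3 differed by more than 0.08 in size. The further probe sets disagreed, at -0.34 without overlap and 0.15 with overlap for Pfkl, and at -0.11 with overlap and 0.44 without for Pfkp. The bifunctional enzymes that set fructose 2,6-bisphosphate, the activator of this step, were read from Pfkfb2, Pfkfb3 and Pfkfb4. Pfkfb3, the kinase-leaning form, had the highest readings of the 3, with 8.60 and 8.65 in the arrays labelled Alox15-/-, against 8.37 and 8.66 in WT. Its 2 probe sets differed in sign, with 0.11 at this one and -0.30 at the dimmer one, where the groups did not overlap. Pfkfb2 read 8.07 and 8.29 in the arrays labelled Alox15-/-, against 8.08 and 7.79 in WT, and its probe sets disagreed, with differences from -0.38 to 0.25 and 0.0141 for their mean. At the probe set tested, the Pfkfb2 difference was 0.39 without WT replicate 1 and 0.105 without WT replicate 2. Pfkfb4 read 6.28 to 6.73 over all arrays, with overlapping groups. In the aldolase step the brain-type Aldoc read 6.43 to 6.96, also with overlap, while Aldoa averaged 11.8 over the 4 arrays.

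The 2 enolase genes read here are the tissue-restricted forms, not the Eno1 form of most tissues, and both were lower in the arrays labelled Alox15-/-. Eno2, named for neurons, read 6.32 and 6.29 in the arrays labelled Alox15-/-, against 7.58 and 7.23 in WT. The 2 arrays labelled Alox15-/- lay close together and both WT arrays lay above them. The difference was -1.10 ± 0.17, that is 2.14-fold lower, with limma unadjusted p = 0.000903 and adjusted p = 0.367. Eno3, the muscle form, read 6.26 and 6.24 in the arrays labelled Alox15-/-, against 6.60 and 6.84 in WT, again with no overlap. Its difference was -0.48 ± 0.15, 1.39-fold lower, with limma unadjusted p = 0.02 and adjusted p = 0.601. Each gene had 1 probe set, so that no second reading of it was at hand. Leaving out 1 array at a time gave -1.27 to -0.92 for Eno2 and -0.60 to -0.36 for Eno3. Eno3 is a close neighbour of Alox15 on chromosome 11, with 13 tested genes between them. The other genes of the list on that chromosome were Aldoc, Pdk2 and Slc16a3, with 144, 337 and 854 tested genes between them and Alox15 and differences of -0.03, -0.35 and -0.02. Whether position near Alox15 bears on the Eno3 difference was not tested.

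**Figure D2:**
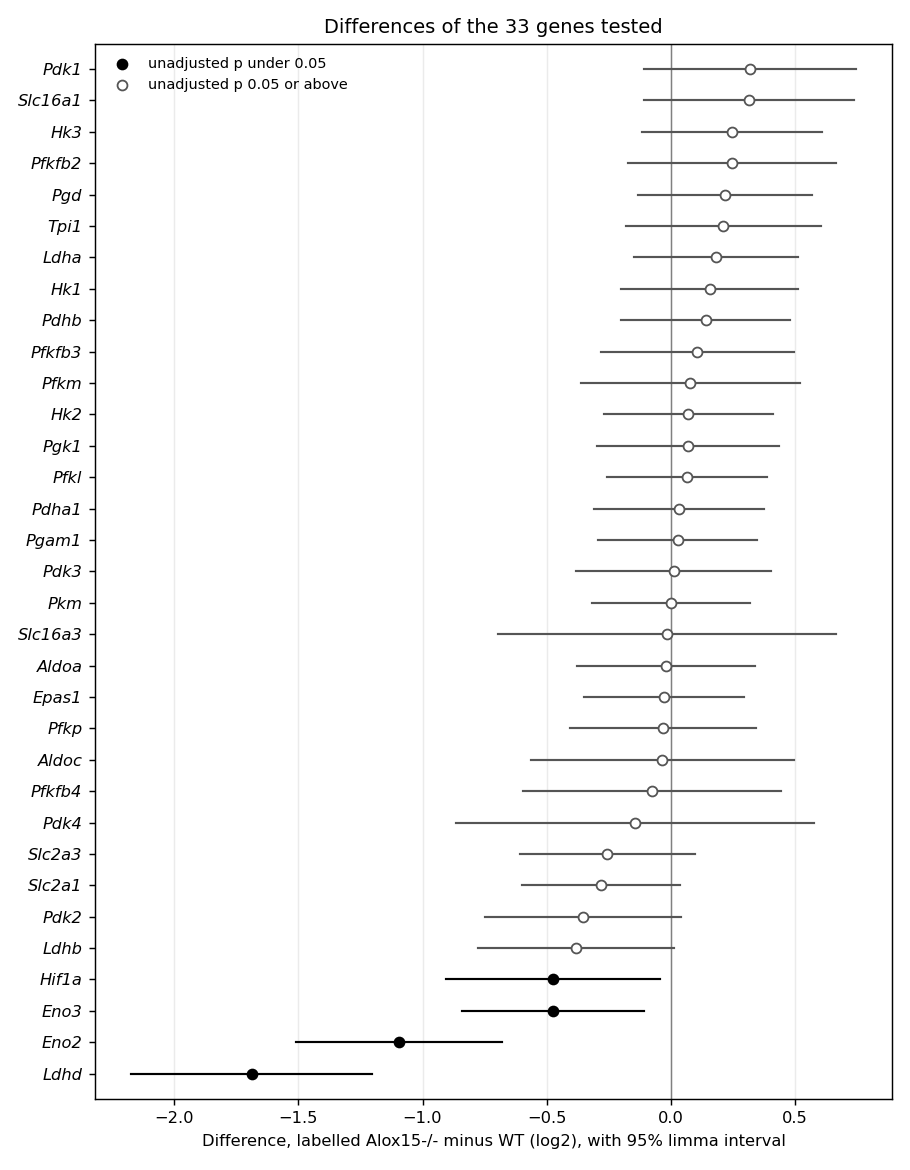
Difference between the arrays labelled Alox15-/- and WT on the log2 scale (horizontal axis) with its 95% limma interval for each of the 33 genes, sorted from the highest, Pdk1 at 0.32, to the lowest, Ldhd at -1.69; filled points have an unadjusted p under 0.05. The 4 filled points, Ldhd, Eno2, Eno3 and Hif1a, are all negative.

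The lactate dehydrogenase genes did not share a direction. Ldha, whose subunit favours lactate production, read 12.16 and 12.17 in the arrays labelled Alox15-/-, against 12.04 and 11.92 in WT, a difference of 0.18 ± 0.13 with no overlap (limma adjusted p = 0.77). Ldhb, whose subunit favours pyruvate formation, read 10.99 and 10.79 in the arrays labelled Alox15-/-, against 11.16 and 11.39 in WT, a difference of -0.38 ± 0.16 with no overlap (limma unadjusted p = 0.0563, adjusted p = 0.656). All 4 probe sets of Ldhb were lower, from -0.38 to -0.21, with overlap at the one of -0.21 alone. Neither gene passed the test, and the difference between the 2 differences was not tested. Leaving out 1 array at a time left Ldha at 0.12 (without WT replicate 2) to 0.24 and Ldhb at -0.50 to -0.26.

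Ldhd, a mitochondrial flavoenzyme that oxidises D-lactate and is unrelated in sequence to Ldha and Ldhb, had the largest difference of the list. It read 5.68 and 6.09 in the arrays labelled Alox15-/-, against 7.69 and 7.45 in WT. Both arrays labelled Alox15-/- lay more than 1 below both WT arrays. The difference was -1.69 ± 0.19, 3.22-fold lower, with a 95% interval of -2.17 to -1.20, limma unadjusted p = 0.000223 and adjusted p = 0.298, which ranked it 12th of 18193 genes by p. Its second probe set read 5.28 and 5.27 in the arrays labelled Alox15-/-, against 5.35 and 5.73 in WT, close to background on all arrays, and differed by -0.27. With a mean-dependent prior variance its adjusted p was 0.0507, and over 15 alternatives it ran from 0.0507 to 0.952 while the difference stayed between -1.90 and -0.98. The smallest of these differences came from averaging both probe sets, which moved the value by over 1.5 times.

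**Figure D3:**
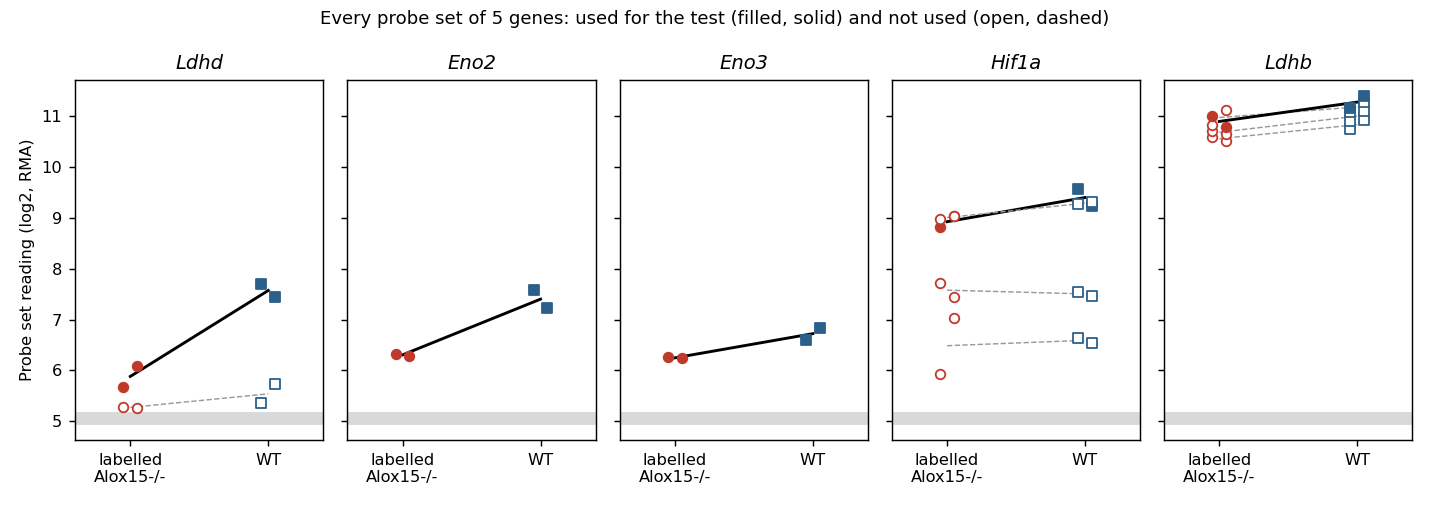
Log2 readings (vertical axis) of every probe set of Ldhd, Eno2, Eno3, Hif1a and Ldhb, with the arrays labelled Alox15-/- as red circles on the left and WT as blue squares on the right of each panel; filled symbols and solid lines between group means show the probe set tested, open symbols and dashed lines the others, and the grey band is the range of the highest bacterial control. The second Ldhd probe set sits just above the band in both groups, and the 2 brightest Hif1a probe sets are lower without overlap while the 2 dimmer ones overlap.

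Of the pyruvate dehydrogenase kinases, Pdk1, a known target of Hif1a, gave the highest readings and, with Slc16a1, the largest positive difference of the 33 genes. It read 10.55 and 10.67 in the arrays labelled Alox15-/-, against 10.46 and 10.11 in WT, a difference of 0.32 ± 0.17 with no overlap and limma adjusted p = 0.704. Its other probe sets differed by 0.47 and -0.26, both without overlap, and by 0.02 with overlap. Probe sets of Pdk1 thus separated the groups in both directions, and the mean of all 4 gave 0.14. Leaving out 1 array gave 0.14 without WT replicate 2 to 0.50 without WT replicate 1. Pdk2, the broadly expressed kinase, was lower, with 7.92 and 7.84 in the arrays labelled Alox15-/-, against 8.38 and 8.09 in WT, a difference of -0.35 ± 0.16 (limma adjusted p = 0.676), which was -0.21 without WT replicate 1. Pdk3, an X-linked isoform, read 8.16 and 8.43 in the arrays labelled Alox15-/-, against 8.35 and 8.21 in WT, with overlap. Pdk4, the isoform known from fasting and PPAR signalling, read 2.45 to 3.29 and was below background on every array. The kinases' substrate was read from both genes of the E1 heterotetramer. Pdha1, its alpha subunit, read 10.50 and 10.59 in the arrays labelled Alox15-/-, against 10.44 and 10.59 in WT, and Pdhb, its beta subunit, 10.77 and 10.70 in the arrays labelled Alox15-/-, against 10.52 and 10.67 in WT. Their differences were 0.03 ± 0.14 and 0.14 ± 0.13, with overlap for Pdha1 alone. The Pdhb difference was 0.0675 without WT replicate 1 and 0.21 without WT replicate 2. Its other probe set differed by -0.10 with overlap, and the mean of both gave 0.0203.

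The oxidative pentose phosphate branch was read from Pgd, the 6-phosphogluconate dehydrogenase that makes NADPH. Its probe set read 10.89 and 10.93 in the arrays labelled Alox15-/-, against 10.79 and 10.60 in WT, a difference of 0.22 ± 0.14 with no overlap and limma adjusted p = 0.745. The probe set carries a suffix of possible cross-hybridisation, as do those of Slc2a3 and Aldoa. All 4 probe sets of Pgd were higher, by 0.22 to 0.42, and at the one without that suffix limma's unadjusted p was under 0.05. At the probe set tested, the difference was 0.12 without WT replicate 2.

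Hif1a, the oxygen-regulated subunit itself, was lower at the probe set tested. It read 8.82 and 9.03 in the arrays labelled Alox15-/-, against 9.56 and 9.24 in WT. The groups did not overlap. The difference was -0.48 ± 0.17, 1.39-fold lower, with limma unadjusted p = 0.0364 and adjusted p = 0.63. A second bright probe set read 8.97 and 9.04 in the arrays labelled Alox15-/-, against 9.27 and 9.31 in WT and differed by -0.28, whereas the 2 dimmer ones differed by 0.07 and -0.11 with overlapping groups. The mean of all 4 probe sets gave -0.20, and leaving out 1 array gave -0.64 to -0.32 (without WT replicate 1) at the tested one. The protein is controlled mainly by its breakdown, which RNA readings do not see. Epas1, which encodes the second oxygen-regulated alpha subunit, HIF-2 alpha, read 4.68 and 4.73 in the arrays labelled Alox15-/-, against 4.70 and 4.76 in WT, below background on all arrays at both of its probe sets, so that no level can be given.

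The isoforms differed in how far they read above background. Aldoa, Ldha with Ldhb, Slc16a1, Pdk1, Slc2a1 with Slc2a3, and Hif1a were each read at 8.82 or above on every array. Aldoc, Ldhd, Slc16a3, Pfkfb4, Eno2 and Eno3 lay between 5.68 and 7.69, and Pdk4 and Epas1 in the background. Pdk2, Pdk3, Pfkfb2 and Pfkfb3 read 7.79 to 8.66, and the 3 hexokinases and 3 phosphofructokinase subunits 8.50 to 9.89. Aldolase and the lactate carriers thus had 1 bright gene beside a dimmer one, both glucose carriers were bright, Ldha and Ldhb were bright beside Ldhd, and neither enolase read here was. Across the list 31 of 33 genes were above background on all 4 arrays, beside 13008 of all 18193 genes tested. Of 21 genes with several probe sets, 12 had all of them on one side of 0 and 9 had both signs.

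Other genes of these pathways were taken from lists by function, and none passed the limma adjusted threshold. At an unadjusted p under 0.05, the counts below stand beside 4.2% of all genes higher and 3.57% lower. Among 11 other glycolytic isoforms and side enzymes tested, 1 was higher at that level, Adpgk, the ADP-dependent glucokinase, with 7.32 and 7.71 in the arrays labelled Alox15-/-, against 7.10 and 6.82 in WT (0.56). Among 12 other pentose phosphate genes, 1 was higher, Tigar, a fructose bisphosphatase that favours this branch, with 6.78 and 7.02 in the arrays labelled Alox15-/-, against 6.39 and 6.41 in WT (0.50). Among 10 genes of the pyruvate dehydrogenase complex and mitochondrial pyruvate handling, 1 was higher, Dld, the E3 subunit, with 9.66 and 9.56 in the arrays labelled Alox15-/-, against 9.16 and 9.17 in WT (0.44). The medians of these 3 lists were 0.16, 0.07 and 0.05, beside 0.02 over all genes, and over the alternatives they ran from 0.0225 (without WT replicate 2) to 0.28 (without WT replicate 1), from 0.03 (without Alox15-/- replicate 2) to 0.11 (without Alox15-/- replicate 1), and from 0.0175 (without Alox15-/- replicate 1) to 0.0869 (without WT replicate 1). The limma adjusted p was 0.630 for Adpgk, 0.580 for Tigar and 0.583 for Dld. Other probe sets differed by 1.04 for Adpgk, by 0.095 and 0.38 for Tigar and by 0.24 for Dld.

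Hexose and monocarboxylate carriers other than the 4 above gave 0 of 14 genes at an unadjusted p under 0.05 by limma, and 0 of 19 genes of the tricarboxylic acid cycle did so. Their medians were -0.02 and 0.04, and without Alox15-/- replicate 2 they were 0.0869 and 0.00. Of 16 genes of gluconeogenesis and glycogen, 2 were higher (beside 4.2% of all genes) and 0 lower (beside 3.57%), with a median of 0.00 that ran from -0.0079 with cyclic loess to 0.0775 without WT replicate 2. Fbp1, the fructose-1,6-bisphosphatase that opposes phosphofructokinase, read 8.03 and 8.03 in the arrays labelled Alox15-/-, against 7.58 and 7.29 in WT (0.60, limma adjusted p = 0.575), and G6pc3, the glucose-6-phosphatase subunit that neutrophils need, read 8.62 and 8.83 in the arrays labelled Alox15-/-, against 8.17 and 8.37 in WT (0.45, limma adjusted p = 0.622).

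Partners and regulators of hypoxia-inducible factor showed 1 of 14 genes lower (beside 3.57% of all genes) and 0 higher (beside 4.2%), with a median of -0.01 that was -0.13 without Alox15-/- replicate 2 and 0.0219 without Alox15-/- replicate 1. It was Meis1, a stem cell transcription factor reported to activate Hif1a in mouse stem cells, with 9.79 and 10.14 in the arrays labelled Alox15-/-, against 10.46 and 10.48 in WT (-0.51, limma adjusted p = 0.617). Its other probe sets ran from -0.75 to -0.16. Vhl and Egln1, which mark the alpha subunits for breakdown, differed by -0.11 and -0.16 with overlapping groups, and by 0.10 and 0.20 at another probe set of each. Of 21 further target genes of the factor, 1 was higher (beside 4.2% of all genes) and 1 lower (beside 3.57%). Ankrd37 read 6.72 and 6.69 in the arrays labelled Alox15-/-, against 6.18 and 6.21 in WT (0.51), and Rora read 7.75 and 7.72 in the arrays labelled Alox15-/-, against 8.23 and 8.34 in WT (-0.55), both with limma adjusted p = 0.570, and the other Rora probe sets ran from -1.29 to 0.10. The median of the 21 was 0.02, which was 0.11 without WT replicate 2 and -0.03 with the mean of all probe sets, and the best-known targets Vegfa, Bnip3 and Car9 differed by 0.10, -0.03 and 0.02, and Vegfa by -0.28 at its other probe set. Adm, with the largest difference of these targets, read 5.61 and 7.87 in the arrays labelled Alox15-/-, against 5.81 and 6.22 in WT, so that 1 array carried its difference.

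**Figure D4:**
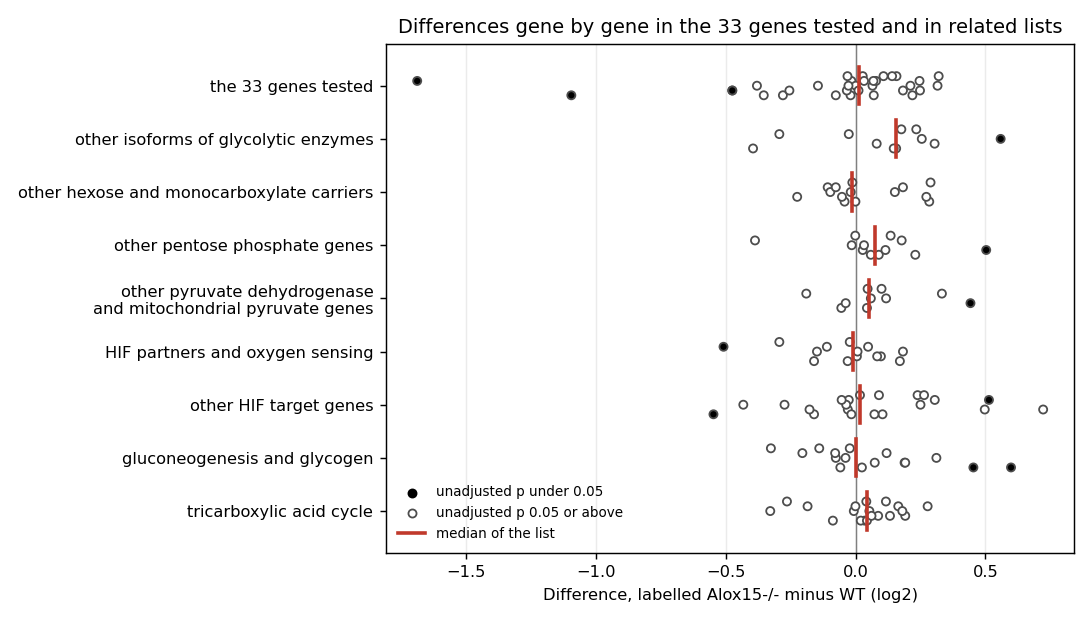
Difference between the arrays labelled Alox15-/- and WT on the log2 scale (horizontal axis), 1 point per gene, for the 33 genes tested and 8 related lists from top to bottom; filled points have an unadjusted p under 0.05 and red bars are the list medians. The medians lie between -0.02 and 0.16, the 2 points below -1 are Ldhd and Eno2, and the points of Eno3 and Hif1a coincide at -0.48.

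The precision of 2 arrays per group bounds these statements. The 95% interval reached a median of 0.37 to either side of the difference over the 33 genes, from 0.32 to 0.72. For 31 genes the interval lay within -1 to 1, that is within a 2-fold difference either way, and for 12 within -0.5 to 0.5. The exceptions to the first were Ldhd and Eno2.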

How the data were processed

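RNA of 4 samples was hybridised to Affymetrix mouse arrays. The deposited values are log2 readings per probe set. The submitters' processing notes name Affymetrix Expression Console 1.1 and RMA, a method that corrects background, sets arrays to one distribution and summarises the probes of a set. Precision is limited by the number of arrays. The labels' protocols describe a sense-strand whole-transcript kit, whereas the probe set names belong to an array for antisense targets, and which applies is not given.

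Groups came from the sample titles. Of 45101 probe sets, 34958 had 1 symbol, 932 several and 9211 none in the platform annotation used. Without 64 control probe sets, and with the probe set of highest mean per gene, 18193 genes entered a limma 3.58.1 fit (R 4.3.3; lmFit and eBayes, two-sided, with no block and no filter on dim genes), with Benjamini-Hochberg adjustment over all genes. The code was tested on simulated data. Background is the highest of 27 bacterial control probe sets on each array.

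The genes and lists were chosen with earlier results of these data known. Genes named in full were those with unadjusted p under 0.05 and groups that do not overlap, Hif1a, Epas1, the isoform of highest reading in each step, and up to 3 such genes per related list. Vhl, Egln1, Vegfa, Bnip3, Car9 and Adm were named after their values were seen. Promoters are from RefSeq (GRCm38.p6), with 36 of 38 genes matched. Alternatives covered normalization, dim genes, variance moderation, array weights, probe set choice, a replicate block and leaving out each array. Figures used matplotlib 3.10.9.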

Additional observations from a re-analysis of the deposited data

How the results depend on the processing

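Of 15 alternatives, 11 keep all 4 arrays and 4 leave out 1, where the lone array is assumed to vary like the other group. None brought a listed gene past a limma adjusted p of 0.05, the lowest being 0.0507. The count of all genes past that threshold was 1, against 22 with a mean-dependent prior variance and 0 without any 1 of the arrays, where few degrees of freedom remain. At an unadjusted limma p under 0.05 with no overlap, 0 listed genes were higher and 4 lower. The mean-dependent prior gave 2 higher (Ldha and Pdk1) and 7 lower (the 4 with Slc2a1, Slc2a3 and Ldhb), beside 4.38% of all genes lower. Without probe sets of ambiguous suffix 1 was higher (Pgd) and 4 lower, beside 3.54% of all genes lower. The share of all genes higher is not given for these settings, so their counts of higher genes cannot be set beside it. Leaving out 1 array changed which genes were called and brought in genes outside the 4. The differences then ran from -1.90 to -1.48 for Ldhd and from -1.27 to -0.92 for Eno2. For Eno3 they ran from -0.60 to -0.36 and for Hif1a from -0.64 to -0.32. Ldhd and Eno2 were among the lower genes in every one of the 11 alternatives that keep all 4 arrays, Eno3 and Hif1a were not. Groups did not overlap for 10 to 15 genes higher and 8 to 14 lower without 1 array, where fewer arrays make separation easier, beside up to 39.7% and 33.4% of all genes. The median difference over the list ran from -0.0388 (without WT replicate 1) to 0.0962 (without WT replicate 2), so its sign rests on WT replicate 1.

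With the replicate number as a block, 3 genes were lower, beside 3.3% of all genes, and Hif1a was not among them. In that setting 0 were higher and 1 gene of all passed, so that the block changed no other call. Same-numbered arrays did not deviate together (r = -0.02 over genes), and the titles share a number only. Of 33 genes, 17 kept their sign in all alternatives and 16 did not, in 28 of 492 values. Cyclic loess turned Pkm to -0.0002, and averaging all probe sets turned Pfkl to -0.0408, Pfkp to 0.10, Aldoa to 0.0286, Pfkfb3 to -0.0944 and Epas1 to 0.20. Without 1 array the ranges of the genes that changed sign were -0.0125 to 0.15 for Hk2, -0.0462 to 0.18 for Pgk1, -0.0244 to 0.0256 for Pkm, -0.04 to 0.11 for Pdha1, -0.0388 to 0.25 for Pfkfb3, -0.15 to 0.0875 for Pfkp, -0.30 to 0.23 for Aldoc, -0.13 to 0.15 for Pdk3, -0.32 to 0.29 for Slc16a3, -0.27 to 0.12 for Pfkfb4, -0.0562 to 0.0012 for Epas1, -0.12 to 0.28 for Pfkm, -0.13 to 0.0938 for Aldoa, -0.0112 to 0.0662 for Pgam1 and -0.57 to 0.28 for Pdk4. The cause of these changes was not tested.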
